A study of Mus musculus with 5 samples.

Results

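To compare the genomic profiles that separate anti-Pcgf6 antibodies gave in mouse embryonic stem cells (ESCs), ChIP-seq with the Abcam antibody was set against ChIP-seq with the Santa Cruz antibody. These are 4 of the 5 samples of the series, 2 repeats with each antibody, and the remaining sample is input DNA, chromatin sequenced without an antibody. All samples came from CCE cells, an established mouse ESC line grown in serum with leukemia inhibitory factor (LIF) below passage 15, with no genetic change or drug treatment in any group. Protein was fixed to DNA with paraformaldehyde after disuccinimidyl glutarate, and the chromatin was sonicated. No chromatin without Pcgf6 and no pull-down with a non-specific antibody was analysed here, so the fragments that either antibody collects without Pcgf6 cannot be told apart from those bound to it.

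Pcgf6 is a Polycomb group RING finger protein. It is the defining subunit of a variant Polycomb repressive complex 1 that also holds Mga, Max, E2f6 and L3mbtl2, and Mga and Max bind the E-box while E2f6 binds the E2F site. The complex is known in ESCs for occupying the promoters of germ cell and meiosis genes. Most of these promoters are CpG islands, stretches in which the dinucleotide CpG, rare in the rest of the mammalian genome, is frequent. The count of CpG in a promoter or fragment is therefore the sequence feature by which the antibodies were compared.

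The promoter pieces that follow show that range of CpG content. Each is the 150 bases immediately before the main transcription start site (TSS) on the strand of the gene, taken from the mm9 genome (NCBIM37) and written 5′ to 3′ with every CpG in capitals. Ddx4 (chr13:113442519-113442668, minus strand), a germ cell RNA helicase, and Tdrkh (chr3:94217068-94217217, plus strand), a Tudor domain protein of the piRNA pathway, are shown because their promoters stood high over input with both antibodies. Hes1 (chr16:30065276-30065425, plus strand), a transcriptional repressor downstream of Notch, had the highest Abcam share in a list of genes that the study names, among those with at least 20 fragments. Edn3 (chr2:174585970-174586119, plus strand), the peptide endothelin 3, and Cym (chr3:107024651-107024800, minus strand), chymosin, were among the promoters divided most unequally.
Ddx4: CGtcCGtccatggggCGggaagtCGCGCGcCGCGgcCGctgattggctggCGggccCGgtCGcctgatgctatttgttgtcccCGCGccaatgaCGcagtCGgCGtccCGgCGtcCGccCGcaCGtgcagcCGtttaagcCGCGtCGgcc
Tdrkh: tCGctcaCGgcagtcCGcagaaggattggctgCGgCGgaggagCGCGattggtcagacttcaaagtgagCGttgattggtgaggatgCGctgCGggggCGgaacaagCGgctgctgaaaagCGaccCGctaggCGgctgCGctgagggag
Hes1: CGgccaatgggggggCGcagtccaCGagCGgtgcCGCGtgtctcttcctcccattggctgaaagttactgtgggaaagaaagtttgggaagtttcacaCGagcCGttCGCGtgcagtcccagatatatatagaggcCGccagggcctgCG
Edn3: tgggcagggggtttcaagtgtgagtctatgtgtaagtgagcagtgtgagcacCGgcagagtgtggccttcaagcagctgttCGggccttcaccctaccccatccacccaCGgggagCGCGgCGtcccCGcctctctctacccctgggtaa
Cym: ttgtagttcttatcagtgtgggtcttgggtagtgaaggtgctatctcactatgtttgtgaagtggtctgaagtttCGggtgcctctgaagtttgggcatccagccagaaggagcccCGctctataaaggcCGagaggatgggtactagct
The piece of Ddx4 holds 26 CpG, that of Tdrkh 16, that of Hes1 12, that of Edn3 7 and that of Cym 3. Only the Ddx4 piece, of these 5, holds the E-box letters CACGTG, once, and the E2F letters GCGGGAA, once on either strand.

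The deposited depth of each sample was resolved into the 300 bp fragments it was built from. The Abcam repeats held 2761859 and 2850687 fragments, the Santa Cruz repeats 2290081 and 2299897, and the input 22956194. Of the fragments of repeat 1, 88.11% (Abcam) and 87.91% (Santa Cruz) were found in repeat 2 of the same antibody at a displacement of exactly 1 or 15 positions. Between an Abcam and a Santa Cruz repeat the same displacements matched 0.25% and 0.22%. The repeats of an antibody were therefore joined and counted as 1 library, 3161270 fragments for Abcam and 2563681 for Santa Cruz, against 22445245 for the input. With 1 library per antibody, every p-value and 95% interval here compares the fragments of 2 libraries and covers counting error only, so a difference between antibodies cannot be told apart from a difference between 2 pull-downs.

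An A/S ratio below is the number of Abcam fragments over Santa Cruz fragments divided by the same ratio of the library totals, so that 1 stands for equal shares of the libraries. Differences between ratios were tested by Fisher's exact test and single ratios by an exact binomial test, all two-sided. Their p-values were adjusted after Benjamini and Hochberg over a set of 109 such comparisons, in which 1 test is entered in duplicate. Single promoters, bins and chromosomes were each adjusted as a set of their own.

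The antibodies differed most clearly by the CpG content of the fragments themselves. Fragments with no CpG made up 12.45% of the Abcam library, 12.75% of the Santa Cruz library and 9.659% of the input. Fragments with 11 or more CpG made up 3.703% of the Abcam library, 3.363% of the Santa Cruz library and 3.857% of the input. The Abcam library thus leaned to CpG-dense DNA relative to the Santa Cruz library, while both held more CpG-free DNA than the input.

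The A/S ratio rose with each step in CpG number. It was 0.976 (95% interval 0.972 to 0.981) for fragments with none, 0.988 with 1, 0.994 with 2, 1.0035 with 3 to 5, 1.02 with 6 to 10, 1.07 with 11 to 15, 1.11 with 16 to 20 and 1.14 (1.12 to 1.16) with 21 or more. Between the ends the ratio of the ratios was 1.17 (1.15 to 1.19, p = 2.06e-89, adjusted p = 2.25e-87, Fisher's exact test). Over the 4 pairs of 1 file of each antibody this contrast lay between 1.16 and 1.19.

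The gradient was not confined to the surroundings of genes. More than 10 kb from any main TSS the A/S ratio went from 0.976 with no CpG to 1.12 with 21 or more, a contrast of 1.15 (1.11 to 1.19, p = 1.18e-14, adjusted p = 8.03e-14, Fisher's exact test). Within 2 kb of a main TSS it went from 0.986 to 1.15. For fragments with 21 or more CpG, the ratio near a TSS over that far from one was 1.02 (0.979 to 1.06, p = 0.371, adjusted p = 0.459, Fisher's exact test), so a difference by distance was not detectable for these. With fewer CpG the ratio was higher near a TSS, at 1.06 (1.04 to 1.07) against 1.02 (1.01 to 1.02) far from one with 6 to 10 CpG, and at 1.10 (1.07 to 1.12) against 1.05 (1.04 to 1.07) with 11 to 15. The difference by distance was not tested for these classes.

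**Figure D1:**
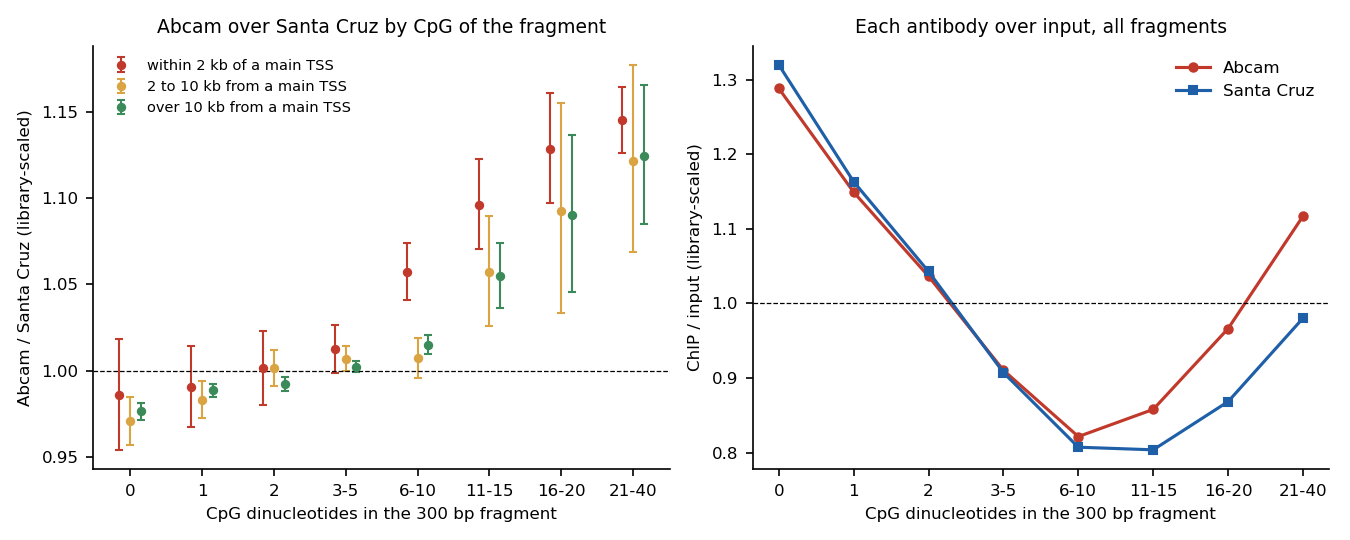
Left, A/S ratio (vertical axis, scaled by library totals) against the number of CpG in the 300 bp fragment (horizontal axis), in red within 2 kb, in yellow 2 to 10 kb and in green over 10 kb from a main TSS, with 95% intervals for counting error as bars; the ratio is below 1 for fragments with no CpG and between 1.12 and 1.15 for fragments with 21 or more at all 3 distances. Right, ratio of each antibody to input for all fragments; both curves fall from about 1.3 at no CpG, and they are further apart from 11 CpG upwards, where Abcam (red) reaches 1.12 and Santa Cruz (blue) 0.980.

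Against the input, both antibodies fell up to 10 CpG, with small differences between them, and were furthest apart with 16 or more. With no CpG the ratio to input was 1.29 for Abcam and 1.32 for Santa Cruz, and with 6 to 10 CpG it was 0.821 and 0.807. With 21 or more CpG it was 1.12 for Abcam and 0.980 for Santa Cruz. Far from any TSS, both libraries were above the input at 21 or more CpG, with 1.49 for Abcam and 1.33 for Santa Cruz.

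CpG number and base composition move together, and the mean GC content of fragments was 45.17% for Abcam, 45.08% for Santa Cruz and 46.84% for the input. Within a band of GC content the CpG number still divided the libraries in most bands. Among fragments within 2 kb of a TSS and with 50 to 60% GC, the A/S ratio was 1.01 with 0 to 5 CpG and 1.10 with 6 or more (ratio 1.09, 1.06 to 1.12, p = 7.16e-11, adjusted p = 2.89e-10, Fisher's exact test). Over 10 kb from a TSS and with 60% GC or more, it was 0.969 with 0 to 5 CpG and 1.06 with 6 or more (ratio 1.10, 1.04 to 1.16, p = 0.00057, adjusted p = 0.000986, Fisher's exact test). Fragments that were GC-rich but poor in CpG were thus not among those more frequent with Abcam. Below 40% GC the contrast near a TSS was 0.973 (0.914 to 1.04, adjusted p = 0.472, Fisher's exact test).

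Promoters, taken as 2 kb to either side of the main TSS, were sorted by sequence alone. Of the 22359 promoters, 12645 were CpG-rich, with a 500 bp stretch of at least 55% GC and a CpG observed over expected ratio of at least 0.6 around the start of the gene. Another 5144 were CpG-poor, with no stretch reaching 0.4, and 4570 were intermediate. Promoters held 5.873% of the Abcam fragments, 5.582% of the Santa Cruz fragments and 5.976% of the input fragments.

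Taken as whole classes, CpG-rich promoters were higher with Abcam and CpG-poor promoters were not. The A/S ratio was 1.07 (1.06 to 1.08) over CpG-rich, 1.02 (0.999 to 1.03) over intermediate and 1.0007 (0.982 to 1.02) over CpG-poor promoters. The depth of CpG-rich promoters relative to the genome mean of each file was 2.30 and 2.32 in the Abcam repeats, 2.14 and 2.17 in the Santa Cruz repeats and 2.33 in the input. Since the files of an antibody hold mostly the same fragments, their closeness is no measure of replicate error. Over CpG-poor promoters the 4 files lay between 0.963 and 0.966, with the input at 1.03. The ratio of CpG-rich to CpG-poor was 1.07 (1.05 to 1.09, p = 5.16e-11, adjusted p = 2.25e-10, Fisher's exact test).

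Split by CpG per kb, the promoters with fewest CpG went the other way. In the sparsest of 10 equal groups (median 3.75 CpG per kb) the A/S ratio was 0.934 (0.899 to 0.971, p = 0.000459, adjusted p = 0.000807, exact binomial test). It was 1.05 in the fourth and the fifth group and between 1.07 and 1.08 in each of the 5 densest. The ratio therefore levelled off in the denser groups, above a median of 23.2 CpG per kb.

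In 10 kb bins over the whole genome the same order held with a smaller range. The A/S ratio was 0.980 (0.973 to 0.987) in the sparsest of 10 groups by CpG per kb and 1.03 (1.02 to 1.03) in the densest (ratio 1.05, p = 6.91e-28, adjusted p = 1.26e-26, Fisher's exact test). Bins without any main TSS went from 0.981 to 1.02. Leaving out the first Santa Cruz file lowered the contrast of the densest to the sparsest group to 1.015. That setting compared the joined Abcam library with a single Santa Cruz file. Over the pairs of single files, Abcam with Santa Cruz, the contrast lay between 1.026 and 1.071. With Abcam file 1 it was 1.051 for Santa Cruz file 1 and 1.026 for Santa Cruz file 2. The size of the contrast thus depended on which file of an antibody was used. Within the fifth of bins with the lowest GC content, bins with more CpG than the median and those with fewer did not differ detectably (ratio 1.01, 0.996 to 1.02, adjusted p = 0.359, Fisher's exact test), and in the fifth with the highest the ratio was 1.02 (1.02 to 1.03, adjusted p = 5.53e-14, Fisher's exact test).

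**Figure D2:**
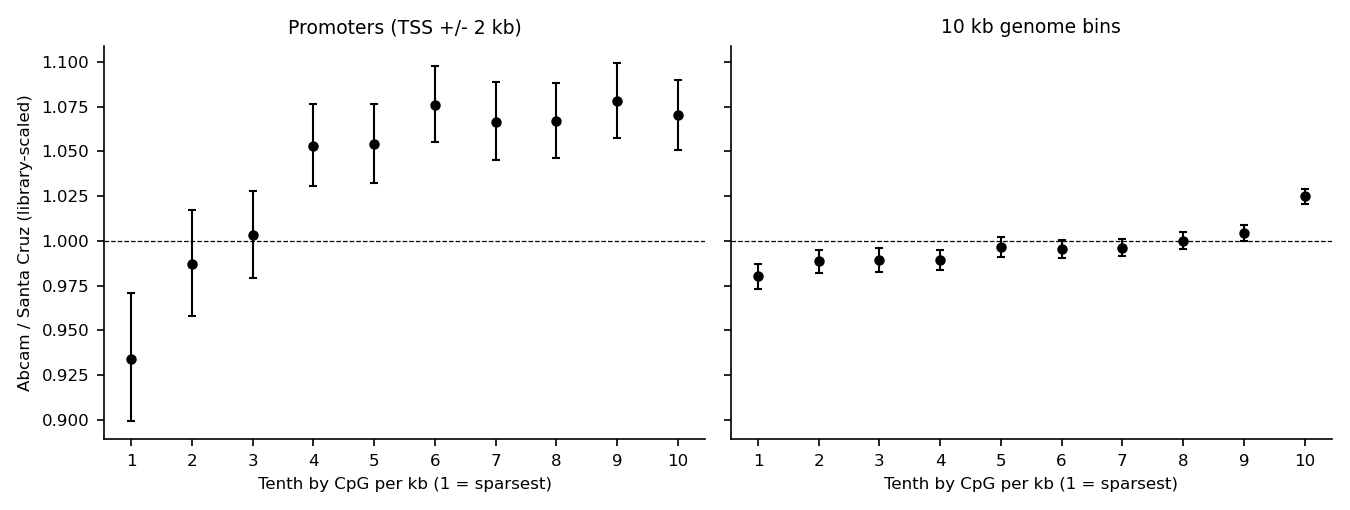
A/S ratio (vertical axis, scaled by library totals) of promoters (left) and of 10 kb genome bins (right) in 10 groups by CpG per kb from sparsest (1) to densest (10), with 95% intervals for counting error as bars and 1 as the dashed line. The promoter groups go from 0.934 to values between 1.07 and 1.08, and the bin groups from 0.980 to 1.03.

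Within bands of GC content or input, the difference between promoter classes was resolved in some bands and not in others. In the 2 lowest of 5 GC bands, CpG-rich over CpG-poor was 1.14 (1.06 to 1.22) and 1.13 (1.08 to 1.19), with adjusted p = 0.000634 and 1.16e-06 by Fisher's exact test. In the 3 higher GC bands it was 1.02, 1.02 and 1.05, with intervals that held 1. Of 5 bands by input fragments, 1 passed (1.10, adjusted p = 1.63e-05, Fisher's exact test), and the others lay between 1.01 and 1.05. The CpG-poor promoters were not alike over the bands. Their own A/S ratio was 0.973 and 0.959 in the 2 lowest GC bands and 1.06, 1.03 and 1.02 in the 3 higher. From the lowest to the highest input band it was 0.953, 0.984, 1.03, 1.06 and 1.03. These differences within the CpG-poor class were not tested. Without the olfactory and vomeronasal receptor genes, which make up many CpG-poor promoters, the contrast over all promoters was 1.06. On chromosome X it was 0.976 (0.829 to 1.15), an interval that holds both 1 and the value over all promoters.

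Around the TSS, the difference between the antibodies was concentrated at the start site of CpG-rich promoters. Within 500 bp of the TSS the A/S ratio of CpG-rich promoters was 1.13 (1.12 to 1.15), and between 1.5 and 2 kb away it was 1.03 (1.01 to 1.05). The ratio of centre to flank was 1.10 (1.08 to 1.13, p = 3.10e-17, adjusted p = 3.07e-16, Fisher's exact test). In fragments, the centre stood over the flank 2.04 times with Abcam, 1.85 times with Santa Cruz and 1.90 times in the input. By deposited depth it was 2.05 and 2.05 in the Abcam files and 1.84 and 1.86 in the Santa Cruz files, with 1.94 in the input. At intermediate promoters the ratio of centre to flank was 1.06 (adjusted p = 0.0154, Fisher's exact test) and at CpG-poor promoters 1.04 (0.984 to 1.09, adjusted p = 0.241, Fisher's exact test).

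In 100 bp steps the A/S ratio of CpG-rich promoters peaked just upstream of the TSS. It was 1.07 at 450 bp upstream, 1.16 at 250 bp, 1.20 at 150 bp and 1.29 (1.23 to 1.34) at 50 bp upstream, then 1.21 at 50 bp and 1.11 at 150 bp downstream. At 50 bp upstream the density per kb and 1000000 fragments of the library was 1.30 for Abcam, 1.01 for Santa Cruz and 1.44 for the input. Santa Cruz had a local minimum at this position, between 1.12 at 250 bp upstream and 1.35 at 150 bp downstream. Abcam had a shallower one at 150 bp upstream, at 1.27, and the input rose to a single maximum of 1.47 at 50 bp downstream.

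**Figure D3:**
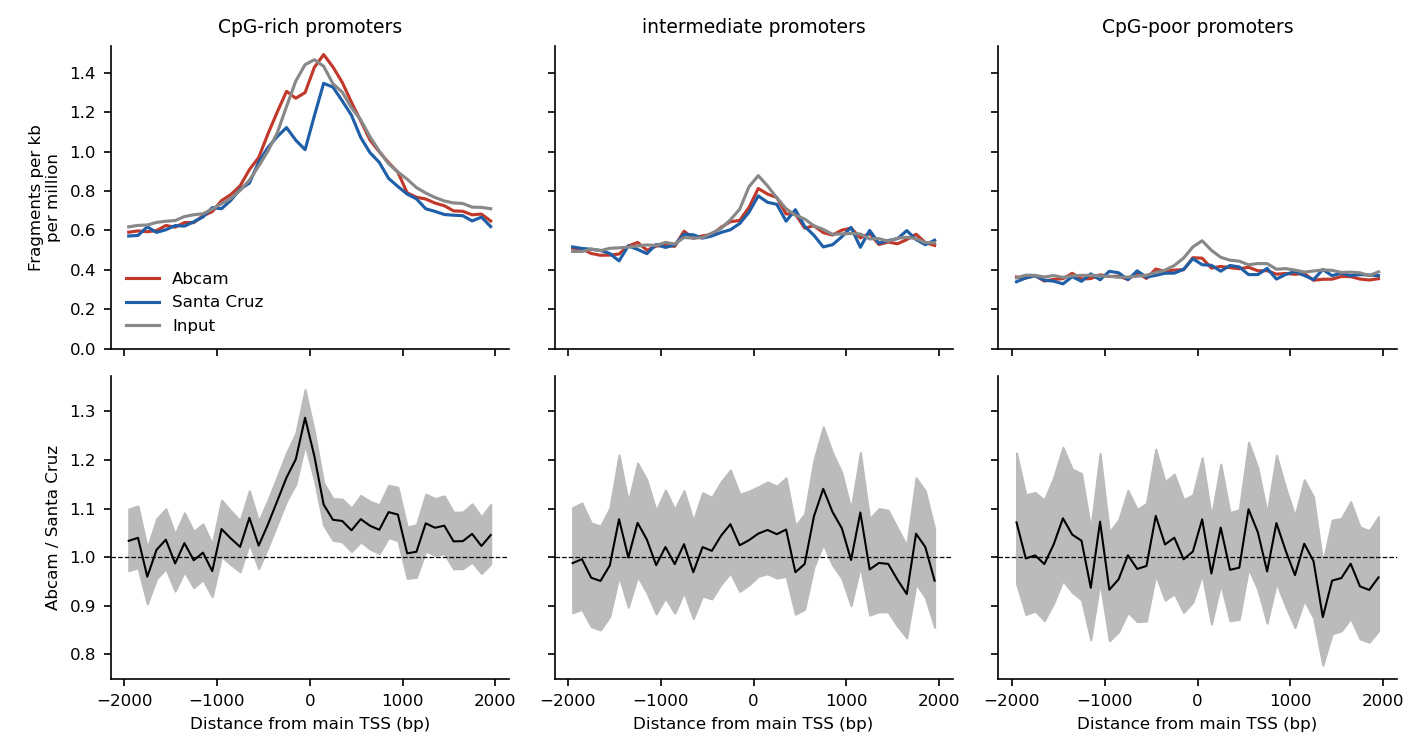
Upper row, fragments per kb and 1000000 fragments of the library (vertical axis) in 100 bp steps by distance from the main TSS (horizontal axis, bp; negative is upstream) for Abcam (red), Santa Cruz (blue) and input (gray) at CpG-rich, intermediate and CpG-poor promoters; lower row, A/S ratio with its 95% interval for counting error in gray. In CpG-rich promoters the Santa Cruz curve dips to 1.01 at 50 bp upstream, where Abcam is at 1.30, and the ratio peaks at 1.29.

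The interval from 200 bp upstream to 100 bp downstream of the TSS, chosen after this profile had been seen, is called the core here, and the rest of the 500 bp to either side is called the shoulders. In CpG-rich promoters the core held 15972 Abcam and 10528 Santa Cruz fragments, an A/S ratio of 1.23 (1.20 to 1.26), against 1.09 (1.08 to 1.11) in the shoulders. The core over the shoulders was 1.12 (1.09 to 1.16, p = 3.35e-15, adjusted p = 2.81e-14, Fisher's exact test), and 1.12 to 1.14 over the 4 pairs of files. Since the core was placed by the peak of the ratio, this p-value is a description and not independent evidence. Per base, the core stood over the shoulders 1.02 times with Abcam, 0.910 times with Santa Cruz and 1.15 times in the input.

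In intermediate promoters the core over the shoulders was 1.0006 (0.938 to 1.07, adjusted p = 0.987, Fisher's exact test) and in CpG-poor promoters 1.01 (0.936 to 1.09, adjusted p = 0.821, Fisher's exact test). Among CpG-rich promoters it was 1.11, 1.14 and 1.12 in 3 equal groups of rising CpG per kb and 1.11, 1.14 and 1.12 in 3 groups of rising input. In 3 groups by the centre over flank of the input it was 1.09, 1.13 and 1.15, with A/S ratios in the core of 1.17, 1.24 and 1.28, and the differences between groups were not tested. It stayed at 1.11 in the 9786 CpG-rich promoters with no other main TSS within 4 kb. By CpG number of the fragment, in the CpG-rich promoters with no other main TSS within 4 kb, the contrast was resolved in the 2 denser of 4 classes, with the same limit on its p-values since the core was placed on this profile. Among fragments with 21 or more CpG the A/S ratio was 1.25 in the core and 1.11 in the shoulders (core against all other positions within 2 kb 1.12, 1.08 to 1.17, adjusted p = 4.57e-08, Fisher's exact test). With 11 to 20 CpG the contrast was 1.11 (1.05 to 1.18), and with 6 to 10 it was 1.04 (0.933 to 1.16, adjusted p = 0.557, Fisher's exact test). Among fragments with 5 CpG or fewer, of which the core held 328 and 255, it was 1.03 (0.875 to 1.22, adjusted p = 0.796, Fisher's exact test).

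Letters of the sites bound by partners of Pcgf6 were searched in the 250 bp to either side of the TSS on both strands. The E-box CACGTG was present in 10.3% of all promoters and 13.4% of CpG-rich ones. The E2F letters GCGGGAA, or TTCCCGC on the other strand, were present in 9.56% of all promoters and 15.2% of CpG-rich ones. Over the whole 2 kb to either side, CpG-rich promoters with the E-box had the A/S ratio of those without it (ratio 0.996, 0.973 to 1.02), and so had those with the E2F letters (0.989, 0.967 to 1.01). In the core, the A/S ratio was 1.32 with and 1.21 without the E2F letters (ratio 1.09, 1.02 to 1.16, p = 0.0117, adjusted p = 0.0177, Fisher's exact test), and 1.25 with and 1.23 without the E-box (ratio 1.02, 0.952 to 1.08, adjusted p = 0.711, Fisher's exact test). The E2F contrast was computed after the profile was seen. A match of letters is a description and not a bound site.

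Single promoters offered few fragments, with a median of 9 for Abcam and 6 for Santa Cruz. Of the 21441 promoters with any fragment, 2 (0.00933%) passed an adjusted p of 0.05 by the exact binomial test, and 800 (3.73%) had an unadjusted p under 0.05, of which 499 were higher with Abcam and 301 with Santa Cruz. Within CpG-rich promoters the unadjusted division was 337 against 162. The spread between the libraries over promoters, as chi-square per degree of freedom, was 1.01, where counting error alone gives 0.981 to 1.02.

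The promoters that passed were Gm10222 and Gm10925, adjacent predicted genes on chromosome 1. Gm10222 held 347 Abcam, 114 Santa Cruz and 1258 input fragments, an A/S ratio of 2.47 (1.99 to 3.08, adjusted p = 1.38e-14, exact binomial test). Its depth relative to the genome mean was 70.4 and 70.0 in the Abcam files, 27.5 and 26.9 in the Santa Cruz files and 57.7 in the input. The Santa Cruz library lay below the input there and the Abcam library above it. Gm10925 held 277 Abcam, 86 Santa Cruz and 1137 input fragments (A/S 2.61, 2.04 to 3.37, adjusted p = 1.02e-12, exact binomial test). These promoters lie in DNA that resembles the mitochondrial genome, and neither is a promoter with low input.

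The other promoters with the most unequal division did not pass. Edn3 had 2 Abcam and 18 Santa Cruz fragments (A/S 0.0901, 0.0101 to 0.376, adjusted p = 0.286, exact binomial test), a ratio that was 0.0501 without Abcam replicate 1, and in depth 0.463 and 0.260 in the Abcam files against 3.63 and 4.32 in the Santa Cruz files and 2.50 in the input. Klhl2, an adaptor of a ubiquitin ligase, had 20 and 2, Cyp4f14, a cytochrome P450, 17 and 1, and Cym 14 and 0 fragments. On the Santa Cruz side Ceacam14 had 0 Abcam and 9 Santa Cruz fragments, X99384 4 and 18, Spata21 2 and 13, and the lipoxygenase gene Alox12b 3 and 15. All 7 had an adjusted p of 1 by the exact binomial test. Their sequence classes were mixed, with Edn3, Klhl2, X99384 and Alox12b CpG-rich, Spata21 intermediate, and Cym, Cyp4f14 and Ceacam14 CpG-poor.

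**Figure D4:**
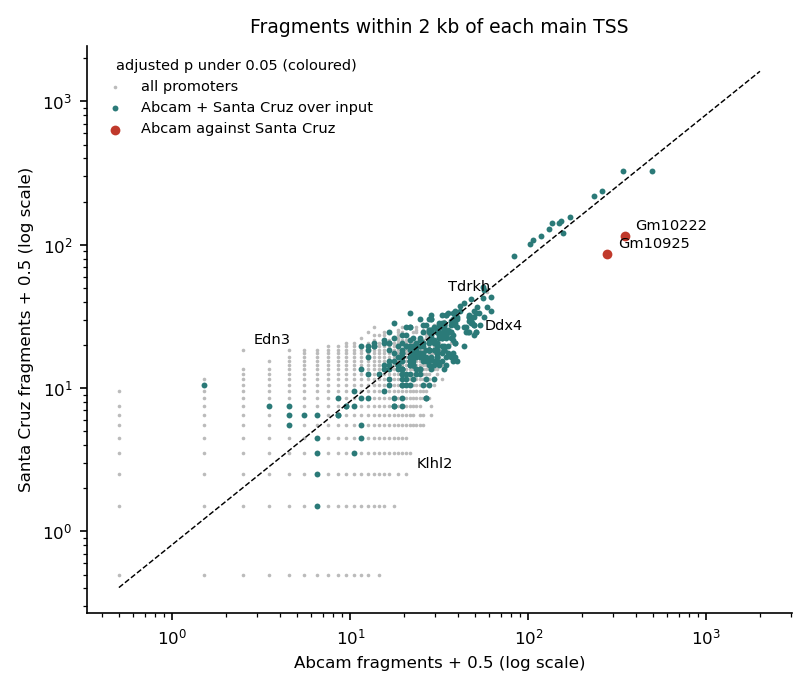
Abcam fragments (horizontal axis) against Santa Cruz fragments (vertical axis) within 2 kb of each main TSS, both as the number plus 0.5 on a log scale; gray points are all promoters, green those whose summed fragments passed an adjusted p of 0.05 over input, red the 2 that passed between antibodies, and the dashed line marks equal shares of the libraries. Gm10222 (347 and 114) and Gm10925 (277 and 86) lie below the line, while Ddx4 (49 and 34) and Tdrkh (51 and 36) lie close to it.

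Promoters at which the libraries together exceeded the input were then taken. The sum does not fix the division between the antibodies, but 55.2% of all ChIP fragments are Abcam fragments, so a promoter high with Abcam alone passes more easily than one high with Santa Cruz alone. By an exact binomial test on the sum, 316 of 22359 promoters (1.41%) passed an adjusted p of 0.05. They held 3.001 times the input with Abcam and 2.73 times with Santa Cruz. The A/S ratio over them was 1.10 (1.07 to 1.13, p = 6.62e-10, adjusted p = 2.19e-09, exact binomial test). At 8 of them the input was over 3 times the median promoter, and the 308 others also gave 1.10.

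Of these 308, 267 were CpG-rich, 23 intermediate and 18 CpG-poor. The CpG-rich ones had an A/S ratio of 1.14 (1.10 to 1.18), against 1.07 (1.06 to 1.08) for CpG-rich promoters that did not pass on the sum, a ratio of 1.07 (1.03 to 1.11, p = 0.000752, adjusted p = 0.00126, Fisher's exact test). Because the choice by the sum leans to promoters high with Abcam, the p-values for promoters so chosen are descriptions. The same holds for the A/S ratios by sum over input. By the sum over input, the A/S ratio of CpG-rich promoters was 1.06 where the sum was 1 to 1.25 times the input, 1.12 where it was 2 to 3 times and 1.14 where it was 3 times or more. It was also 1.09 where the sum was under 0.5 times the input, so the order was not the same over the whole range. One by one, 215 of the 308 stood over 2 times the input with both antibodies, 59 with Abcam alone, 28 with Santa Cruz alone and 6 with neither. The interval of the A/S ratio held 1 at 291 of them, lay above 1 at 13 and below 1 at 4. From its lower to its upper bound that interval spanned 3.64-fold at the median promoter. An unadjusted p under 0.05 by the exact binomial test was found at 18 of the 308, against 3.73% of all promoters with any fragment. The division between 13 and 4 carries the same lean of the choice to Abcam.

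Ddx4 and Tdrkh, whose upstream pieces are given above, were among the 10 promoters with the largest sum over input. Ddx4 had 49 Abcam and 34 Santa Cruz fragments against 32 in the deeper input, 10.9 and 9.30 times the input, and its depth was 9.26 and 9.43 in the Abcam files, 8.94 and 9.18 in the Santa Cruz files and 0.897 in the input. Tdrkh had 51 and 36 fragments against 50 in the input, 7.24 and 6.30 times the input, with depths of 11.3 and 10.5, of 8.94 and 8.90, and of 1.43. The files of both antibodies were far above the input at both genes, and the A/S ratios were 1.17 (0.739 to 1.87) and 1.15 (0.735 to 1.81). The other 8 had far fewer fragments, except Gm11168, a predicted gene on chromosome 9 with 156 Abcam, 121 Santa Cruz and 165 input fragments (A/S 1.05, 0.819 to 1.34). Its depth was 45.6 and 34.8 in the Abcam files, 52.5 and 37.5 in the Santa Cruz files and 7.75 in the input. The files of an antibody thus differed there, and its input depth stood well over the 1.87 of all promoters. 2610042L04Rik (6 and 6), Tmem181a (6 and 1, with 0 in the input), Gm20516 (4 and 5), Gm10754 (6 and 2), Gm8300 (5 and 6), Olfr1461 (1 and 10) and Olfr263 (6 and 3) had at most 12 ChIP fragments in all. Of these, the interval excluded 1 only at the olfactory receptor gene Olfr1461 (A/S 0.0811, 0.00187 to 0.570), whose adjusted p was 1 by the exact binomial test.

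No member of any of 9 gene lists passed between the antibodies, against 0.00933% of all promoters. Over all promoters the A/S ratio was 1.05 (1.04 to 1.06), and the median over promoters with a fragment was also 1.05. The lists were made with earlier results of these data known, and their ratios and counts are given as descriptions beside those values. The highest and the lowest member of a list are given only among members with at least 20 fragments, since ratios of fewer fragments reach further in both directions.

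The germ cell genes, the known targets of the complex, were divided evenly. Over 28 promoters, 27 of them CpG-rich, the A/S ratio was 0.995 (0.891 to 1.11), the median 0.978, and 14 members were higher with each antibody. Their summed depth was 5.26 and 5.26 in the Abcam files, 5.34 and 5.33 in the Santa Cruz files and 1.86 in the input, so the files of the antibodies differed by little beside their distance from the input. On the sum, 18 of the 28 passed over the input, against 1.41% of all promoters. The list was made with earlier results of these data known, so this count is a description. Over these 18 the A/S ratio was 0.989 (0.876 to 1.12).

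Mael, a piRNA pathway protein, had the highest ratio among the 22 germ cell members with at least 20 fragments, with 26 Abcam and 11 Santa Cruz fragments (A/S 1.92, 0.915 to 4.30) and depths of 5.10 and 5.61 against 2.51 and 2.78. Syce1, a central element protein of the synaptonemal complex, had the lowest, with 21 and 33 fragments (0.516, 0.284 to 0.919) and depths of 3.94 and 3.81 against 8.58 and 7.98. Both also had an adjusted p of 1 by the exact binomial test. Stk31, a kinase-like protein of germ cells, had 50 and 33 fragments, Slc25a31, the ADP/ATP carrier of the testis, 30 and 20, Dazl, an RNA-binding protein of germ cells, 25 and 24, Tdrd1, a Tudor domain protein, 25 and 27, and Taf7l, a testis paralog of a general transcription factor subunit, 21 and 19.

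Genes of the Pcgf6 complex itself had an A/S ratio of 1.14 (0.948 to 1.37) over 14 promoters, 8 higher with Abcam and 6 with Santa Cruz. Mga, its large DNA-binding subunit, had 52 Abcam and 33 Santa Cruz fragments, 4.24 and 3.32 times the input. E2f6, its E2F subunit, had 47 and 30, 4.51 and 3.55 times the input. Both were well over the input with each antibody, while the Pcgf6 promoter, with 10 and 7 fragments, was at 0.922 and 0.796 times the input. Mga and E2f6 were among 4 of the 14 members that passed on the sum, against 1.41% of all promoters. Of the others, Hdac2 had 43 and 39 fragments, 4.07 and 4.55 times the input (A/S 0.894, 0.566 to 1.42). Tfdp1 had 27 and 20, 2.46 and 2.24 times the input (A/S 1.09, 0.592 to 2.06). Of the 8 members with at least 20 fragments, Rybp, a subunit that variant complexes share, had the highest ratio (22 and 10, A/S 1.78, 0.811 to 4.22) and Cbx3, a heterochromatin protein 1, the lowest (13 and 15, 0.703, 0.308 to 1.58).

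The subunits of canonical PRC1 and of PRC2 had an A/S ratio of 1.23 (0.987 to 1.55) over 15 promoters, 13 higher with Abcam and 2 with Santa Cruz. Their summed depth was 2.68 and 2.74 in the Abcam files, 2.21 and 2.19 in the Santa Cruz files and 2.49 in the input, which thus lay between the antibodies. Of the 9 members with at least 20 fragments, Jarid2, an accessory subunit of PRC2, was highest, with 21 and 6 (A/S 2.84, 1.11 to 8.60), and Suz12, a core subunit, lowest, with 15 and 20 (0.608, 0.290 to 1.25). Neither passed.

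A list of 25 of the genes that the study names had an A/S ratio of 1.23 (1.04 to 1.46), 18 higher with Abcam and 7 with Santa Cruz. Their depth was 2.88 and 2.91 in the Abcam files, 2.34 and 2.34 in the Santa Cruz files and 2.49 in the input. Of the 25, 1 passed on the sum, Ivns1abp, against 1.41% of all promoters. Ivns1abp, a Kelch protein, had 34 and 14 fragments (A/S 1.97, 1.03 to 3.97), 3.14 and 1.59 times the input. Hes1 had 24 and 5 fragments (A/S 3.89, 1.46 to 13.1), with depths of 5.27 and 4.93 in the Abcam files, 1.40 and 1.11 in the Santa Cruz files and 3.48 in the input. At Hes1 the input thus lay between the antibodies, and the adjusted p was 1 by the exact binomial test. Of the 16 members with at least 20 fragments, Elac2, a tRNA-processing ribonuclease, had the lowest ratio (10 and 13, 0.624, 0.245 to 1.54), and Mat2a, a synthetase of S-adenosylmethionine, had 26 and 27.

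Of the pluripotency factors among them, 4 are given here with their fragments and ratios to the input. Pou5f1, which encodes Oct4, had 11 Abcam and 8 Santa Cruz fragments, 0.685 and 0.614 times the input. Nanog had 19 and 13, 1.08 and 0.911 times the input, and Sox2 had 14 and 9, 1.04 and 0.821 times the input. Lin28b, a regulator of let-7 processing, had 11 and 3, 2.003 and 0.673 times the input (A/S 2.97, 0.786 to 16.6). At these 4 promoters the interval of the A/S ratio held 1, and none passed on the sum. Of all promoters 1.41% passed on the sum, so that none of 4 is not particular to these genes.

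The Hox genes, which specify the body axis, had an A/S ratio of 1.13 (0.993 to 1.30) over 39 promoters, 26 higher with Abcam and 13 with Santa Cruz. Of the 27 members with at least 20 fragments, Hoxc4 had the highest ratio, with 16 and 4 fragments (3.24, 1.05 to 13.3) and Hoxb8 the lowest, with 8 and 13 (0.499, 0.179 to 1.30). Against the input the list stood at 0.923 with Abcam and 0.813 with Santa Cruz. The 80 cytosolic ribosomal protein genes, 76 of them CpG-rich, had an A/S ratio of 1.07 (0.958 to 1.19), with the 24 members of at least 20 fragments running from Rps7 (16 and 5, 2.60) to Rps15 (9 and 15, 0.487), and also stood under the input, at 0.868 and 0.813.

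Among gene families with other promoter types, the 1113 olfactory receptor genes, of which 891 were CpG-poor, had an A/S ratio of 0.964 (0.918 to 1.01), and the 9 members with at least 20 fragments ran from Olfr718-ps1 at 2.03 to Olfr209 at 0.608. The 327 vomeronasal receptor genes, which sense pheromones, had 0.913 (0.808 to 1.03), and none of them reached 20 fragments. The 67 replication-dependent histone genes, of which 64 were CpG-rich, had 1.0016 (0.845 to 1.19), with 33 members higher with Abcam and 29 with Santa Cruz, and the 5 members with at least 20 fragments ran from Hist1h2al at 1.53 to Hist1h3h at 0.991. Reads of such near-identical gene copies may have been placed on a copy or dropped by the authors' mapping, so single members are uncertain. Both receptor lists were above the input with both antibodies, at 1.23 and 1.28 for olfactory and 1.502 and 1.65 for vomeronasal receptor genes. Such values were not particular to receptor genes. The sparsest group of promoters by CpG per kb stood at 1.27 with Abcam and 1.36 with Santa Cruz. The sparsest group of bins, among those without any main TSS, stood at 1.40 and 1.43. CpG-poor promoters as a whole class were below the input, at 0.942 and 0.941. A part of CpG content in the receptor values was not tested.

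**Figure D5:**
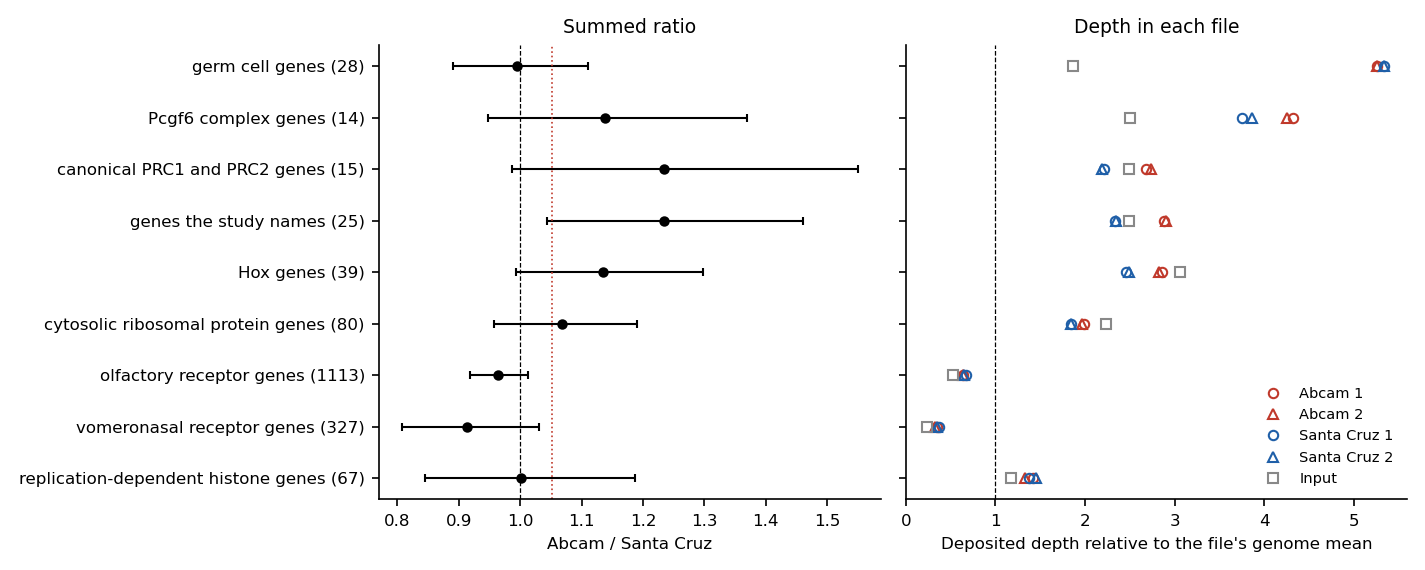
Left, A/S ratio (horizontal axis, scaled by library totals) of the summed fragments of each gene list, with the number of promoters in brackets, 95% intervals for counting error as bars, 1 as the dashed line and the ratio over all promoters, 1.05, as the red dotted line. Right, deposited depth at the same promoters relative to the genome mean of each file; the germ cell genes lie at 5.26 to 5.34 in all 4 ChIP files and at 1.86 in the input.

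Genome-wide, 4 of 250391 bins of 10 kb with any fragment (0.0016%) passed an adjusted p of 0.05 by the exact binomial test, all higher with Abcam, and 9407 had an unadjusted p under 0.05, 4465 higher with Abcam and 4942 with Santa Cruz. The spread between the libraries over bins, as chi-square per degree of freedom, was 1.009, just above the 0.9945 to 1.006 that counting error alone gives, and 1.008 without bins of high input. Between the repeats of an antibody it was 0.158 for Abcam and 0.151 for Santa Cruz. Repeats thus differed by much less than separate samples of fragments would.

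All 4 bins shared sequence with the mitochondrial genome and stood high in the input. The bin at chr2:22440001-22450000 held 250 Abcam and 70 Santa Cruz fragments (A/S 2.90, 2.21 to 3.83, adjusted p = 3.71e-12, exact binomial test), with 18.7% of its 24 bp words also in the mitochondrial genome and 9.84 times the median input. In depth it was at 19.8 and 19.6 in the Abcam files, 7.26 and 7.57 in the Santa Cruz files and 14.2 in the input, which again lay between the antibodies. The bins at chr1:24610001-24620000 (166 and 62 fragments, A/S 2.17) and chr1:24620001-24630000 (259 and 83, 2.53) shared 15.6% and 30.2% of words, and hold the TSS of Gm10222 and Gm10925, so that these bins and promoters are largely the same fragments. The bin at chr4:79650001-79660000 (111 and 31, 2.90) shared 1.6%.

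Such insertions are copies of mitochondrial DNA in the nuclear genome, on which reads of mitochondrial DNA can be placed. The stretch that follows, chr2:22445342-22445461 on the plus strand of NCBIM37, is shown because it lies in the bin with the smallest p. Capitals mark bases in words of 24 shared with the mitochondrial genome.
chr2 stretch: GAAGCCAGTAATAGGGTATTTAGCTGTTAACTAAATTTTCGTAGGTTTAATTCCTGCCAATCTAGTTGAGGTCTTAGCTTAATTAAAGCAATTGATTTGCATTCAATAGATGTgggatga
It holds 1 CpG at 34.2% GC. The bins in which Abcam was called higher held 4.8 to 10 CpG per kb, against a median of 7.2 over bins that shared under 1% of their words. Those at 9 and 10 CpG per kb lay above that median and those at 4.8 and 7.1 below it. A part of CpG content in these calls was not tested.

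By the share of words, a measure chosen after the called bins had been seen, the A/S ratio was 0.9998 in the 255853 bins that shared under 1% of their words, 1.82 (1.498 to 2.21) in 8 bins that shared 1 to 5%, 2.56 (2.10 to 3.13) in 2 bins with 5 to 20% and 2.53 (1.97 to 3.28) in 1 bin with over 20%. The last 3 bins are themselves called ones, and 1 of the 8 is the called bin on chromosome 4, so all these values are a description. Without the 11 bins that shared 1% or more, no bin passed by the exact binomial test. Fragments on the mitochondrial genome itself were not analysed here, so the part of mitochondrial DNA in this result was not tested.

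The remaining bins with the smallest p did not pass. A bin at chr11:3090001-3100000 beside Sfi1, a centrosome gene, held 887 Abcam and 566 Santa Cruz fragments at 52.2 times the median input (A/S 1.27, 1.14 to 1.41, adjusted p = 0.304, exact binomial test). On the Santa Cruz side, 4 of the 5 bins with the smallest p by the exact binomial test were those at chr4:13530001-13540000 (1 Abcam and 18 Santa Cruz fragments, adjusted p = 0.287), chr2:9710001-9720000 (8 and 29), chr13:76120001-76130000 (1 and 15) and chr2:79870001-79880000 (1 and 15). The other one held 0 and 13 fragments at 0.48 times the median input. These bins shared no 24 bp word with the mitochondrial genome, and the 4 given by position had 0.773 to 1.73 times the median input.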

How the data were processed

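The submitters' processing notes name Bowtie 0.1.2.7 and the build mm9. The authors deposited, for each sample, a coverage signal, the depth of reads extended to 300 bp, unscaled and not divided by the input. Here fragments were recovered from rises and falls 300 bp apart (at most 0.00586% of falls unmatched in ChIP samples), the repeats of an antibody were joined at displacements of 1 and 15 positions, and 1 fragment was kept per position. Fragments were counted by their middle within 2 kb of the TSS used by most coding transcripts of 22359 genes (GENCODE for NCBIM37) and in 255864 bins of 10 kb. The Abcam share of each count was tested against 55.2% by an exact binomial test with Benjamini-Hochberg adjustment (threshold 0.05). Intervals of a single A/S ratio are exact. Those of a ratio of 2 A/S ratios are exact below 20000 fragments and from the standard error of the log odds above, which departs from the written design. Any interval covers counting error only. Depths relative to the genome mean use the deposited signal directly.

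The comparison, the gene lists and the tests were chosen with earlier results of these data known. Genes named are the 5 promoters and bins with the smallest p in each direction, the 10 promoters with the largest sum over input outside high input, 25 genes among those the study names, and the extremes of each list among members with at least 20 fragments. Further members of the germ cell and Pcgf6 complex lists were chosen after their values were seen, as were the core interval and the mitochondrial words. Fragment recovery, the calls between antibodies at promoters and the ratio of CpG-rich to CpG-poor promoters were tested on simulated data. The other steps, including the joining of repeats, were not. Alternatives were windows of 1 and 3 kb, bins of 5 and 50 kb, other thresholds and class limits, single files and high-input regions left out. Scripts ran in Python 3.11.15 with scipy 1.17.1 and numba 0.67.0 for the tests and counts, pandas 2.3.3 and numpy 2.4.6 for tables, and matplotlib 3.10.9 for the plots.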

Additional observations from a re-analysis of the deposited data

How the results depend on the processing

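Of 111 recomputed values of the comparisons, 103 kept their direction and side of the threshold, with counts within 1.5 times. Without regions of input over 3 times the median, 0 promoters and 0 bins passed between the antibodies, and without bins sharing 1% or more of 24 bp words with the mitochondrial genome (an alternative added after seeing the data) 0 bins passed. With all fragments as deposited and both repeats summed, 222 promoters, 2104 bins and 8 list members passed, because most fragments then counted more than once. Leaving out 1 file at a time gave 2 to 2 promoters, 3 to 6 bins, 0 to 0 list members, 1.05 to 1.09 for CpG-rich against CpG-poor promoters, 1.015 to 1.08 for the densest against the sparsest bins, 1.09 to 1.10 for TSS centre against flank, 1.07 to 1.13 for promoters enriched on the sum, 1.14 to 1.19 for fragments with 21 or more CpG against none, and 0.95015 to 1.0104 for chromosome X against autosomes. Chromosome X reversed to 1.0104 without Santa Cruz replicate 1 and to 1.0011 for Abcam file 1 with Santa Cruz file 2, and the cause was not tested. The bin at chr1:24610001-24620000 lost its call without Abcam replicate 1 (adjusted p = 0.118, exact binomial test), and that at chr4:79650001-79660000 without Abcam replicate 2 (adjusted p = 0.0529, exact binomial test). No paired analysis was possible because the repeats of each antibody hold the same fragments and count as 1 library. Depth limits single promoters, with a median of 9 Abcam and 6 Santa Cruz fragments.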

Other observations

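By chromosome, the A/S ratio over 10 kb bins was close to 1 on the autosomes, the largest being 1.01 on chromosome 13 (adjusted p = 0.0153, exact binomial test). Chromosome X was at 0.978 (0.967 to 0.990; adjusted p = 0.00393, exact binomial test) and chromosome Y at 0.962 (0.915 to 1.01). Over the 4 pairs of single files, X against the autosomes went from 0.958 to 1.0011. The mean depth of X relative to the genome was 0.316 and 0.310 in the Abcam files, 0.323 and 0.315 in the Santa Cruz files and 0.259 in the input. The files of one antibody thus differed here by about as much as the antibodies did, so no difference between antibodies is read from chromosome X.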
